A study of Homo sapiens with 12 samples.

Results

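The early neural regulators described here are 8 genes, PAX6, SOX1, SOX3, OTX2, ZIC1, ZIC2, NES and NEUROG2, taken by gene name from the 26641 genes of the count table. All 8 names were found in the table. NCCIT, a human embryonal carcinoma cell line, had been given a doxycycline-inducible dCas9 (nuclease-dead Cas9 of S. pyogenes) fused to VPR, a strong activation domain (CRISPRa), or to KRAB, a repression domain (CRISPRi). Each of the 2 progenitor lines then received 1 of 3 CARGO arrays, which express many guide RNAs from one construct, so the 12 polyA RNA-seq libraries come from 6 lines with 2 replicates each. LTR5HS is the long terminal repeat of the youngest HERVK endogenous retroviruses, and the comparison asks how gene expression differs once a fusion is brought to these repeats across the genome. In the LTR5HS Sp array the guides match LTR5HS and carry the S. pyogenes scaffold, so the fusion is brought to LTR5HS (recruitment). LTR5HS Sa carries the same kind of guides on the S. aureus scaffold, which this dCas9 does not use, and nontarget Sp carries S. pyogenes guides with no intended match in the human genome. LTR5HS Sa and nontarget Sp served together as control, with 4 libraries against 2 for recruitment in each fusion. All lines, controls included, were induced with doxycycline for 4 days and carried both PiggyBac transgenes, selected with puromycin and G418. Each fusion and array combination is a single selected line, so the array and the line that carries it cannot be told apart, and p-values measure the spread between the libraries of these lines.

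Neural induction begins when pluripotent cells escape BMP and Nodal signals and switch on a set of transcription factors of the neural plate. OTX2 acts first in primed pluripotent cells and then in forebrain and midbrain, SOX1 and SOX3 with SOX2 form the SOXB1 group that keeps cells as neural progenitors, and ZIC1 and ZIC2 are zinc finger factors of the neural plate and its border. PAX6 patterns forebrain, eye and spinal cord, NEUROG2 is a proneural factor that commits progenitors to become neurons, and NES encodes nestin, the intermediate filament protein of progenitor cells.

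Library totals lay between 13601701 and 69797411 counts, with a median of 18256928. Replicate 2 of dCas9-KRAB nontarget Sp was the deepest and stood apart from the next library, which held 24840708. Levels are given as CPM, the usual depth-scaled unit of RNA-seq, here with TMM library sizes, and 3 counts, taken as the floor of detection, corresponded to 0.0455 to 0.233 CPM. All 16 embryonal carcinoma and pluripotency markers were detected above that floor in every group, but they did not stand at the same level in the lines of both fusions. Their summed level was 1287 to 1911 CPM in the 4 dCas9-VPR control libraries and 5730 to 7133 CPM in the 4 dCas9-KRAB control libraries. NANOG stood at 2.39 ± 1.85 CPM (SD, n = 4) in the former and at 150 ± 32.4 CPM (SD, n = 4) in the latter, and POU5F1 at 14.2 ± 1.19 CPM (SD, n = 4) and 69.6 ± 18.6 CPM (SD, n = 4).

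The guides matched none of the members' promoters. Of the 12 guides of the LTR5HS arrays, the first 3 are printed below, 5′ to 3′, to show the 16-base stretches that were searched for in the genome, each followed by an NGG motif:
LTR5HS-1: tactaagggaactcag
LTR5HS-2: aaaaccgccttagggc
LTR5HS-3: aaaactgccttagggc

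The search of GRCh38 found 2938 exact matches followed by NGG, and 523 sites where at least 3 different guides matched within 1000 bp. Over the tested genes with a known start the median distance to such a site was 1849.1 kb, and 10.8% of the genes lay within 200 kb. None of the members lay within 200 kb of such a site. Repeats matched exactly by fewer than 3 different guides were not counted as sites, and binding of dCas9 was not used. A targeted repeat nearer to a member may therefore have been missed. The nearest was NES, 495 kb from a site, followed by ZIC1 at 887 kb, SOX3 at 1163 kb, PAX6 at 1238 kb and OTX2 at 1785 kb. NEUROG2 at 4667 kb, ZIC2 at 4713 kb and SOX1 at 16800 kb were farther from a site than most genes, as 76.8%, 77.1% and 97.8% of tested genes were as near or nearer. Among all tested genes within 200 kb, 46.9% passed the threshold with CRISPRa and 15.1% with CRISPRi, against 26.2% and 1.3% of genes farther away.

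**Figure D1:**
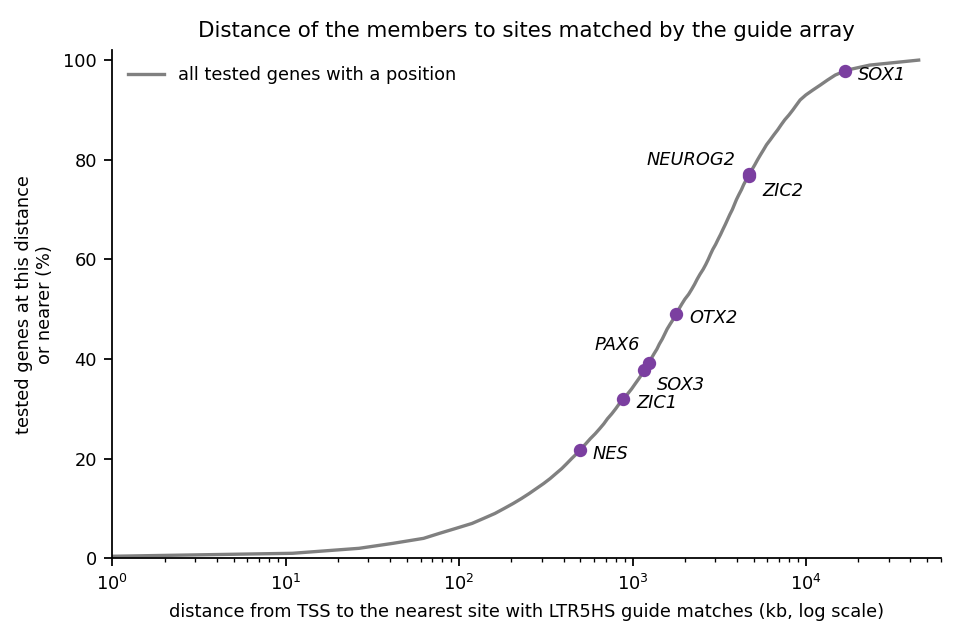
Distance from the transcription start of each early neural regulator to the nearest site matched by at least 3 different LTR5HS guides (x axis, kb, log scale), placed on the cumulative share of all tested genes (y axis, percent). NES is nearest at 495 kb and SOX1 farthest at 16800 kb, and none of the 8 genes lies within 200 kb of such a site. Repeats matched by fewer guides are not counted.

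The promoters of the 4 members that passed the threshold with either fusion are shown as the 250 bases upstream of the RefSeq start (GRCh38.p14), each read 5′ to 3′ on the gene's own strand. Capitals mark the GC box GGGCGG and the CCAAT box, each searched on both strands, so that the reverse complements CCGCCC and ATTGG are in capitals too:
OTX2, chr14:56810480-56810729, minus strand: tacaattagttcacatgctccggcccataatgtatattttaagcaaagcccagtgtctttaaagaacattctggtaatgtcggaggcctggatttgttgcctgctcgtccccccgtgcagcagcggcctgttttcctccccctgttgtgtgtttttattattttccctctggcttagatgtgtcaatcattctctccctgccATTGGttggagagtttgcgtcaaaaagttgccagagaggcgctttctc
SOX3, chrX:140505070-140505319, minus strand: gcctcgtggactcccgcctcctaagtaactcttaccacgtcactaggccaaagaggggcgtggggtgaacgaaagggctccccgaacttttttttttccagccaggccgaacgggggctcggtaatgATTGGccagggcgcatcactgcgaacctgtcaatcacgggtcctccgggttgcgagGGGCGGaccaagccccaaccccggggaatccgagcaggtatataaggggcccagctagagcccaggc
ZIC1, chr3:147409115-147409364, plus strand: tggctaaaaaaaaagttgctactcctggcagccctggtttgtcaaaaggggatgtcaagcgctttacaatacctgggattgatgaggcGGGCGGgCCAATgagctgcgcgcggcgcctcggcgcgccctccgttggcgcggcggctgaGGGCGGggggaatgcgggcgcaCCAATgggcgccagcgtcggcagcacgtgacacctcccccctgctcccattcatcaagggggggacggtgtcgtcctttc
ZIC2, chr13:99981534-99981783, plus strand: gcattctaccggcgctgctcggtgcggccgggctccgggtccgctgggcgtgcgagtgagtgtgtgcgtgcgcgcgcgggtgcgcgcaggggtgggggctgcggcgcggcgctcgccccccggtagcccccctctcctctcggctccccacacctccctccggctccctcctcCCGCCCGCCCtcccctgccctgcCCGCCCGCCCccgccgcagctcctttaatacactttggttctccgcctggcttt

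The GC box was found in 42.3% of 27305 RefSeq promoters of this length and the CCAAT box in 33.0%. ZIC2 held 4 GC boxes, in 2 overlapping pairs, and no CCAAT box, whereas ZIC1 held 2 of each, SOX3 held 1 of each and OTX2 held 1 CCAAT box and no GC box. The window of ZIC2 was 75.6% G or C with 31 CpG dinucleotides and that of OTX2 47.2% with 7, beside medians of 58% and 11 over all promoters. The octamer ATGCAAAT, the SOX core CATTGT and TATAAA, which occur in 1.66%, 9.45% and 11.1% of promoters, were not found in these windows of any of the 8 members. These matches describe the letters in the window only.

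With CRISPRa, 1 early neural regulator rose and 2 fell on recruitment. ZIC1 rose 2.96-fold, ZIC2 fell 3.08-fold and OTX2 fell 2.17-fold, while SOX1, SOX3, PAX6 and NES did not pass the threshold and NEUROG2 was too low to be tested. In bulk RNA, fewer cells that express a gene and less of its RNA per cell cannot be told apart. The threshold was 0.05 for the p-value of edgeR's quasi-likelihood F-test after Benjamini-Hochberg (BH) adjustment over all tested genes. The 3 of 7 tested members past it stand beside 28% of all 16271 tested genes, of which 15.7% were higher and 12.3% lower, and nothing particular to the members is read from this count. Their median log2 fold change was -0.91 beside -0.02 over all tested genes. With CRISPRi, 1 of 8 members passed, SOX3, which was 2.35-fold higher on recruitment, beside 2.77% of 15520 tested genes (0.831% higher, 1.94% lower). The median of the 8 was -0.18 beside 0.000596 over all genes.

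**Figure D2:**
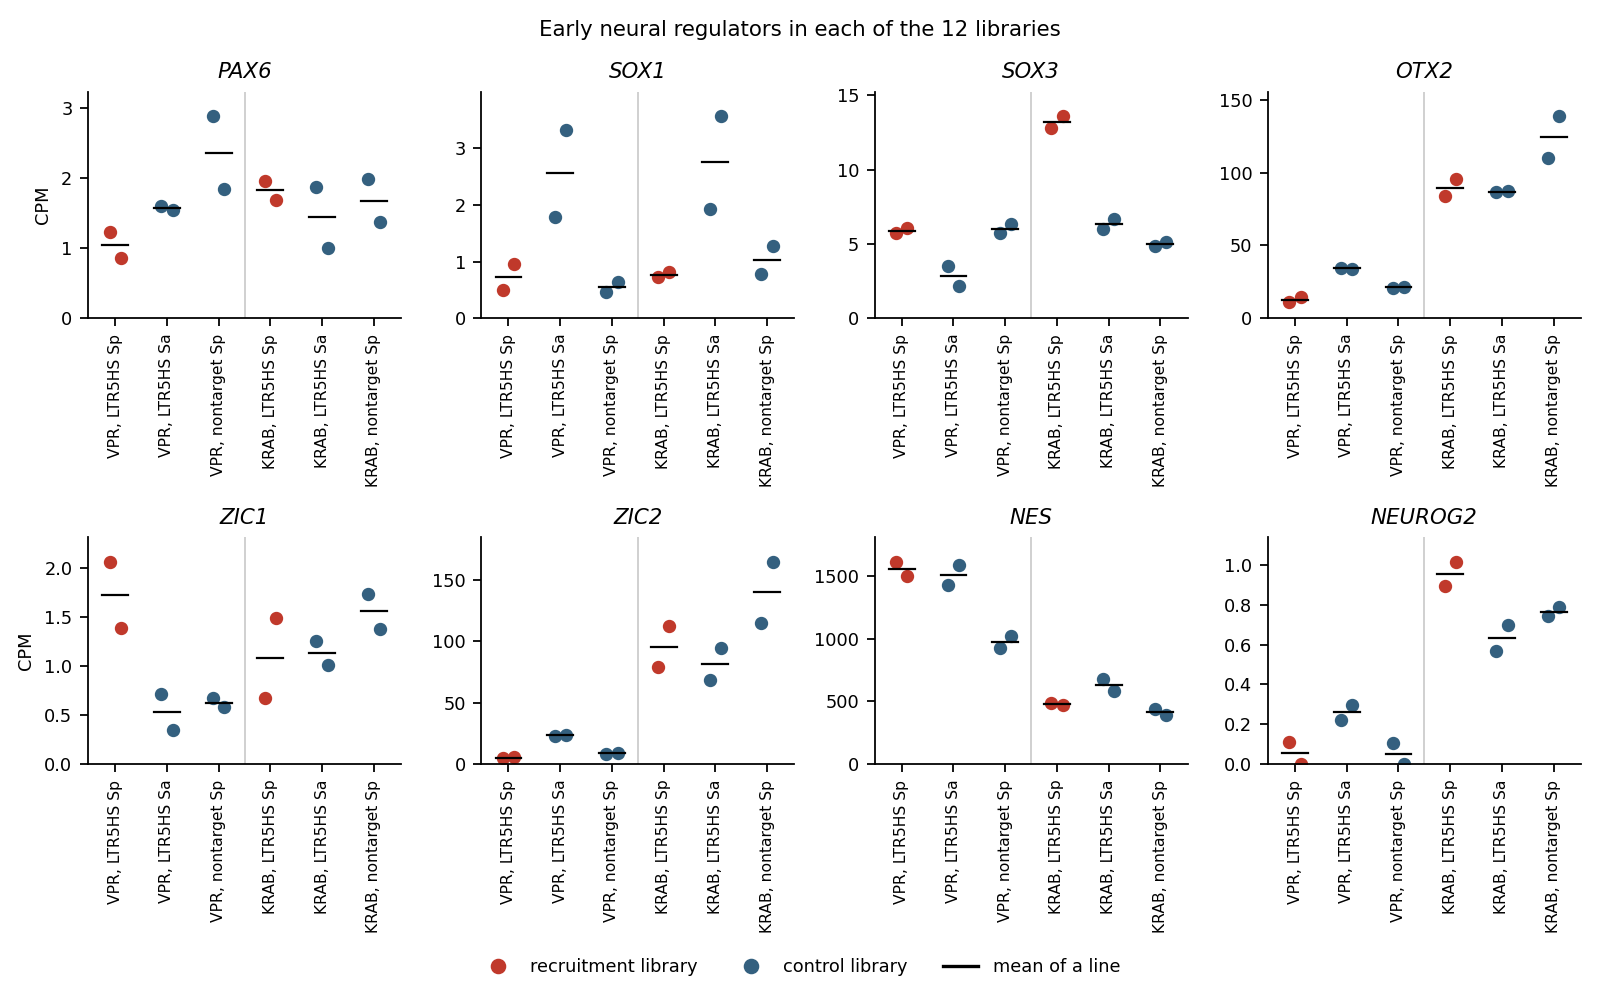
Levels of the 8 early neural regulators in each of the 12 libraries (y axis, CPM on a linear scale that starts at 0), by fusion and guide array (x axis). Each point is 1 library, red for recruitment and blue for control, and the bar is the mean of the 2 libraries of a line. OTX2 and ZIC2 lie lowest in the dCas9-VPR recruitment libraries, SOX3 highest in the dCas9-KRAB recruitment libraries.

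Per kb of gene length, NES led in the dCas9-KRAB control lines with 94.1 ± 24.1 CPM per kb (SD, n = 4), above 95.9% of tested genes, followed by OTX2 with 43.2 ± 10.1 and ZIC2 with 37.3 ± 13.7 CPM per kb (SD, n = 4), whose ranges over libraries overlapped. SOX3 followed with 2.73 ± 0.410 CPM per kb (SD, n = 4), and its range met that of no other member. SOX1, NEUROG2, ZIC1 and PAX6 lay at the bottom with means of 0.460, 0.306, 0.257 and 0.165 CPM per kb, and the range of each overlapped that of its neighbour in this order. In the dCas9-VPR control lines NES was again highest with 223 ± 57.6 CPM per kb (SD, n = 4), and OTX2 with 11.4 ± 3.10 CPM per kb (SD, n = 4) did not overlap ZIC2 with 5.42 ± 2.86 CPM per kb (SD, n = 4). The range of ZIC2 overlapped that of SOX3, which averaged 2.13 CPM per kb. SOX1 at 0.378, PAX6 at 0.208, ZIC1 at 0.110 and NEUROG2 at 0.0682 CPM per kb came last, where PAX6 and ZIC1 did not overlap and the other neighbours did.

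OTX2, a homeobox factor of primed pluripotent cells and the anterior neural plate, lies on the minus strand at chr14:56799905-56816693. Its level was 11.1 and 14.6 CPM in the dCas9-VPR LTR5HS Sp libraries, 34.7 and 34.1 CPM in LTR5HS Sa and 21.0 and 21.6 CPM in nontarget Sp. Both recruitment libraries thus lay below all 4 controls. The log2 fold change was -1.12 (SE 0.27, adjusted p = 0.0177, edgeR quasi-likelihood F-test, BH-adjusted). Without 1 of the recruitment libraries the adjusted p in the same test was 0.146 (without replicate 1) or 0.0568 (without replicate 2). In the dCas9-KRAB lines OTX2 stood at 84.0 and 95.5 CPM with LTR5HS Sp, at 86.6 and 87.4 CPM with LTR5HS Sa and at 110 and 139 CPM with nontarget Sp. There recruitment and control overlapped, with a log2 fold change of -0.24 (SE 0.19, adjusted p = 0.637 in edgeR). The difference between the fusions, -0.88 on the log2 scale (SE 0.35), did not pass the threshold (adjusted p = 0.0944 in edgeR's test of the interaction).

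ZIC2, a factor of early forebrain development and the more abundant of both ZIC members, lies at chr13:99981784-99986765 on the plus strand. Its level was 4.90 and 5.61 CPM with dCas9-VPR LTR5HS Sp, 22.9 and 24.0 CPM with LTR5HS Sa and 8.46 and 9.09 CPM with nontarget Sp. All 6 libraries sorted by array, with recruitment lowest, nontarget Sp next and LTR5HS Sa highest. The log2 fold change against both controls was -1.62 (SE 0.50, adjusted p = 0.0419 in edgeR's quasi-likelihood F-test, BH-adjusted), and it was the member call nearest the threshold. With the replicate number as a block, edgeR gave -1.62 with an adjusted p of 0.0597, and the call was also lost without any 1 of the recruitment or LTR5HS Sa libraries (adjusted p = 0.0591 to 0.203 in edgeR). In the dCas9-KRAB lines ZIC2 stood at 78.8 and 112 CPM with LTR5HS Sp, at 68.5 and 94.8 CPM with LTR5HS Sa and at 115 and 165 CPM with nontarget Sp, and the arms overlapped. The log2 fold change there was -0.22 (SE 0.29, adjusted p = 0.788 in edgeR), and the interaction of -1.40 (SE 0.62) had an adjusted p of 0.136 in edgeR's test.

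ZIC1, the paralog that marks dorsal neural tube and cerebellar progenitors, lies at chr3:147393422-147510293 on the plus strand. In the dCas9-VPR lines it stood at 2.06 and 1.39 CPM with LTR5HS Sp, at 0.714 and 0.348 CPM with LTR5HS Sa and at 0.671 and 0.578 CPM with nontarget Sp. Both recruitment libraries lay above all 4 controls. The log2 fold change was 1.56 (SE 0.35, adjusted p = 0.0125 in edgeR's quasi-likelihood F-test, BH-adjusted). Without dCas9-VPR LTR5HS Sp replicate 1 it was 1.27 with an adjusted p of 0.139 in the same test. With dCas9-KRAB the values were 0.672 and 1.49 CPM with LTR5HS Sp, 1.25 and 1.01 CPM with LTR5HS Sa and 1.73 and 1.38 CPM with nontarget Sp. Here 1 recruitment library was the lowest of the 6 and the other second highest, and the log2 fold change was -0.36 (SE 0.38, adjusted p = 0.729 in edgeR). ZIC1 was the 1 member of 8 whose response differed between the fusions, by 1.92 on the log2 scale (SE 0.54, adjusted p = 0.0216 in edgeR's test of the interaction), where 21% of 16673 tested genes passed (11.5% higher, 9.53% lower). That call was lost without dCas9-VPR LTR5HS Sp replicate 1 or without dCas9-KRAB LTR5HS Sp replicate 1 (adjusted p = 0.113 in edgeR for each). An exon of ZIC4, transcribed from the other strand, shares up to 176 bp with ZIC1 exons, and the strand setting of the counting is not given in the sources used here, so reads from the shared part cannot be told apart.

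The paralogs ZIC5 and ZIC4 did not pass with CRISPRa. ZIC5, the neighbour of ZIC2, averaged 1.98 ± 0.676 CPM (SD, n = 2) in recruitment and 3.74 ± 1.79 CPM (SD, n = 4) in the controls, with a log2 fold change of -0.92 (SE 0.48, adjusted p = 0.198 in edgeR). ZIC4, which lies head to head with ZIC1, had a log2 fold change of 1.13 (SE 0.40, adjusted p = 0.0681 in edgeR), and its 2 recruitment libraries lay above the 4 controls.

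SOX3, the X-linked SOXB1 factor, lies at chrX:140502985-140505069 on the minus strand and was the member that rose with CRISPRi. With dCas9-KRAB it stood at 12.8 and 13.6 CPM with LTR5HS Sp, at 6.03 and 6.67 CPM with LTR5HS Sa and at 4.83 and 5.10 CPM with nontarget Sp. Both recruitment libraries lay above the 4 controls. The log2 fold change was 1.23 (SE 0.18, adjusted p = 0.00489 in edgeR's quasi-likelihood F-test, BH-adjusted). The adjusted p rose to 0.0524 when all 12 libraries shared one edgeR fit, with the same log2 fold change of 1.23 and an SE of 0.31, and to 0.0559 without dCas9-KRAB LTR5HS Sp replicate 2. With dCas9-VPR the levels were 5.73 and 6.04 CPM with LTR5HS Sp, 3.52 and 2.14 CPM with LTR5HS Sa and 5.73 and 6.31 CPM with nontarget Sp. Recruitment thus overlapped nontarget Sp and lay above LTR5HS Sa, and the log2 fold change against both was 0.42 (SE 0.38, adjusted p = 0.460 in edgeR). The response of SOX3 did not pass as different between the fusions, at -0.82 on the log2 scale (SE 0.46, adjusted p = 0.238 in edgeR's test of the interaction).

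SOX1, the SOXB1 factor that first marks committed neural plate, lies at chr13:112067149-112071706 on the plus strand. It stood at 0.501 and 0.962 CPM with dCas9-VPR LTR5HS Sp, at 1.78 and 3.33 CPM with LTR5HS Sa and at 0.464 and 0.631 CPM with nontarget Sp. The dCas9-KRAB lines held 0.728 and 0.813 CPM with LTR5HS Sp, 1.93 and 3.57 CPM with LTR5HS Sa and 0.784 and 1.27 CPM with nontarget Sp. In both fusions the LTR5HS Sa libraries were the 2 highest, while recruitment and nontarget Sp overlapped. The log2 fold change was -1.08 (SE 0.80, adjusted p = 0.355 in edgeR) with CRISPRa and -1.21 (SE 0.59, adjusted p = 0.414 in edgeR) with CRISPRi.

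SOX2, the third SOXB1 gene and a core pluripotency factor, fell with CRISPRa, averaging 360 ± 91.3 CPM over the 4 controls and 153 ± 30.1 CPM over the 2 recruitment libraries (SD) (log2 fold change -1.24, SE 0.25, adjusted p = 0.00735 in edgeR's quasi-likelihood test). SOX2-OT, the long non-coding RNA whose intron holds SOX2, fell with it (log2 fold change -2.53, SE 0.24), as did SOX21, a SOXB2 repressor of progenitor genes, which fell by 3.46 on the log2 scale (SE 0.50). With CRISPRi the log2 fold change of SOX2 was 0.04 (SE 0.13) and that of SOX21 0.06 (SE 0.14). OTX1, the close paralog of OTX2, had a log2 fold change of 0.11 (SE 0.31) with CRISPRa, whereas CRX, the photoreceptor member of the OTX family, rose to 7.60 ± 0.745 CPM (SD, n = 2) beside a control level of 0.379 ± 0.110 CPM (SD, n = 4), a log2 fold change of 4.29 (SE 0.28). CRX passed the filter only through the recruitment libraries.

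PAX6, the paired-box factor of forebrain and eye, lies at chr11:31784779-31817961 on the minus strand. It stood at 1.22 and 0.855 CPM with dCas9-VPR LTR5HS Sp, at 1.61 and 1.54 CPM with LTR5HS Sa and at 2.89 and 1.84 CPM with nontarget Sp. Both recruitment libraries lay below the 4 controls, but the log2 fold change of -0.91 (SE 0.36) did not pass the threshold (adjusted p = 0.0968 in edgeR's quasi-likelihood test). With dCas9-KRAB the values were 1.96 and 1.69 CPM with LTR5HS Sp, 1.88 and 1.01 CPM with LTR5HS Sa and 1.98 and 1.38 CPM with nontarget Sp, and the arms overlapped (log2 fold change 0.22, SE 0.32). ELP4, a subunit of Elongator on the opposite strand, shares up to 5241 bp of a single exon with PAX6 exons, and at these levels reads of either gene there cannot be told apart without a known strand setting. ELP4 itself averaged 6.10 CPM with CRISPRa recruitment and 9.85 CPM in control (log2 fold change -0.69, SE 0.20, adjusted p = 0.0353 in edgeR), and its part in the PAX6 values was not tested. PAX2, a paired-box factor of kidney and midbrain-hindbrain boundary, rose by 2.87 on the log2 scale (SE 0.25) with CRISPRa, and PAX5 by 1.62 (SE 0.40). PAX5 stood at 0.178 to 0.298 CPM in the 4 controls and passed the filter only through the recruitment libraries.

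NEUROG2, at chr4:112513516-112516180 on the minus strand, was close to the floor of detection with dCas9-VPR. It had 2 and 0 counts with LTR5HS Sp, 5 and 6 with LTR5HS Sa and 2 and 0 with nontarget Sp, so no fold is given for recruitment. With dCas9-KRAB it stood at 0.896 and 1.02 CPM with LTR5HS Sp, at 0.569 and 0.698 CPM with LTR5HS Sa and at 0.743 and 0.789 CPM with nontarget Sp. Both recruitment libraries were the highest of the 6, yet the log2 fold change of 0.42 (SE 0.33) did not pass the threshold (adjusted p = 0.631 in edgeR). The antisense gene NEUROG2-AS1 shares 92 bp of exon with NEUROG2. Of its neighbours, ALPK1, a kinase that senses bacterial sugars, rose with CRISPRi to 11.2 ± 0.150 CPM (SD, n = 2) beside a control level of 2.90 ± 0.302 CPM (SD, n = 4), a log2 fold change of 1.95 (SE 0.18, adjusted p = 0.000229 in edgeR). TIFA, the adaptor that acts after ALPK1, had a log2 fold change of 1.07 (SE 0.29) that did not pass (adjusted p = 0.110 in edgeR).

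NES, at chr1:156668763-156677407 on the minus strand, was the most abundant member throughout. It stood at 1614 and 1502 CPM with dCas9-VPR LTR5HS Sp, at 1430 and 1589 CPM with LTR5HS Sa and at 922 and 1021 CPM with nontarget Sp. Recruitment thus overlapped LTR5HS Sa and lay above nontarget Sp, and the log2 fold change against both was 0.33 (SE 0.22, adjusted p = 0.296 in edgeR). With dCas9-KRAB the levels were 484 and 469 CPM with LTR5HS Sp, 682 and 583 CPM with LTR5HS Sa and 436 and 391 CPM with nontarget Sp. Recruitment lay between both control lines, with a log2 fold change of -0.13 (SE 0.20, adjusted p = 0.821 in edgeR). Of the listed neighbours of NES on chromosome 1, CRABP2, which carries retinoic acid to its receptors, rose with CRISPRa from a mean of 115 to 317 CPM (log2 fold change 1.47, SE 0.12), and BCAN, a proteoglycan of brain matrix, rose by 1.16 on the log2 scale (SE 0.19). The neighbours ISG20L2 (0.08, SE 0.10) and HAPLN2 (-0.51, SE 0.48) did not pass.

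The values above differ between the 2 control arrays of a fusion, neither of which recruits the fusion to LTR5HS. In the dCas9-VPR lines, 4 of 7 tested members passed the threshold as higher with LTR5HS Sa than with nontarget Sp (SOX1, OTX2, ZIC2 and NES) and none passed as lower in edgeR, where 4.51% of all tested genes passed the threshold (1.9% higher, 2.61% lower). The log2 differences were 2.22 for SOX1 (SE 0.46, adjusted p = 0.0298), 1.44 for ZIC2 (SE 0.17, adjusted p = 0.00306), 0.71 for OTX2 (SE 0.16, adjusted p = 0.0456) and 0.66 for NES (SE 0.11, adjusted p = 0.0143), all by edgeR's quasi-likelihood F-test, BH-adjusted. Both LTR5HS Sa libraries of SOX3 and of PAX6 lay below both nontarget Sp libraries, with log2 differences of -1.06 (SE 0.26, adjusted p = 0.0594 in edgeR) and -0.57 (SE 0.32, adjusted p = 0.388 in edgeR). In the dCas9-KRAB lines 0 of 8 members passed in edgeR, where 0.567% of all genes did, and 4 of them had an unadjusted p under 0.05. The log2 difference of NES there was 0.62 (SE 0.12, adjusted p = 0.0651) and that of SOX1 1.34 (SE 0.38, adjusted p = 0.250), while ZIC2 and OTX2 were at -0.78 and -0.51. In a contrast of these differences between the fusions, added after the control lines had been seen to differ, 3 of 8 members passed (ZIC2 and OTX2 with a larger and SOX3 with a smaller value for dCas9-VPR), where 2.37% of all tested genes did (0.648% higher, 1.72% lower).

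With CRISPRa the choice of control changed the call of 4 members, SOX1, SOX3, PAX6 and NES. Against LTR5HS Sa alone, 5 members passed with CRISPRa, as SOX1 was lower (log2 fold change -1.79, SE 0.44) and SOX3 higher (1.04, SE 0.27) beside OTX2, ZIC1 and ZIC2. Against nontarget Sp alone, 5 passed again, with PAX6 lower (-1.18, SE 0.37) and NES higher (0.69, SE 0.12) in place of SOX1 and SOX3. ZIC1 was higher and OTX2 and ZIC2 were lower against either control, although ZIC2 had a log2 fold change of -2.17 (SE 0.17) against LTR5HS Sa and of -0.73 (SE 0.23) against nontarget Sp. With CRISPRi, SOX3 passed against either control, with log2 fold changes of 1.06 (SE 0.23) and 1.40 (SE 0.20), and SOX1 was lower against LTR5HS Sa alone (-1.81, SE 0.44). These comparisons share the recruitment libraries and each shares controls with the pooled one.

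**Figure D3:**
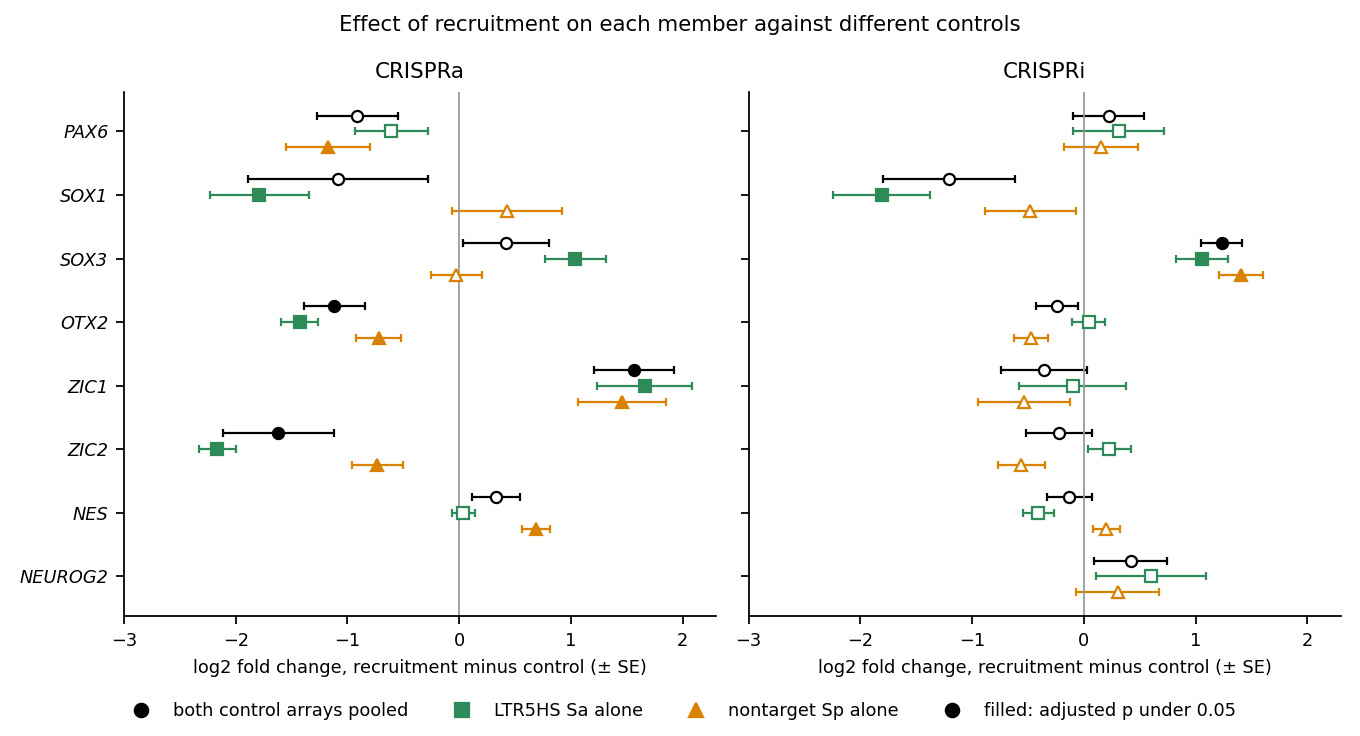
Log2 fold change between recruitment and control for each early neural regulator (x axis, bars are ± SE) with CRISPRa and CRISPRi, against both control arrays pooled, LTR5HS Sa alone or nontarget Sp alone. Filled symbols have an adjusted p under 0.05 in edgeR. ZIC1, OTX2 and ZIC2 keep their side with all 3 controls in CRISPRa, as do PAX6 and NES, which did not pass against the pooled controls. SOX1 and SOX3 change side in CRISPRa with nontarget Sp alone. In CRISPRi, SOX3, PAX6, SOX1, ZIC1 and NEUROG2 keep their side. OTX2 and ZIC2 change side there with LTR5HS Sa alone and NES with nontarget Sp alone. NEUROG2 is missing in CRISPRa because it was not tested.

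The levels also differed between the fusions without recruitment. Between the control lines of dCas9-VPR and dCas9-KRAB, 5 of 8 members differed, where 55.4% of all tested genes did (27.1% higher and 28.3% lower with dCas9-VPR). NEUROG2, 1 of the 5, passed the filter only through the dCas9-KRAB libraries, where it was higher, so nothing is read from its call. NES was 2.37-fold higher with dCas9-VPR (log2 difference 1.25, SE 0.19, adjusted p = 0.000135 in edgeR). ZIC2 was 6.87-fold lower (log2 difference -2.78, SE 0.36), OTX2 3.80-fold lower (-1.93, SE 0.20), NEUROG2 lower by 2.12 on the log2 scale in control libraries with 13 counts in all for dCas9-VPR, and ZIC1 2.34-fold lower (-1.23, SE 0.32). PAX6 (0.32, SE 0.27), SOX1 (-0.20, SE 0.56) and SOX3 (-0.35, SE 0.27) did not pass. All 16 pluripotency markers were lower with dCas9-VPR, with a median log2 difference of -2.29, and their part in the members' values was not tested. The fusion and the progenitor line that carries it cannot be told apart here. Each recruitment contrast was made within a fusion and so does not contain this difference. ZIC2 and OTX2 were already lower in the dCas9-VPR controls, and recruitment of dCas9-VPR went with a further decrease. ZIC1 was lower in these controls too but rose on recruitment of dCas9-VPR, and NEUROG2 was too low to be tested for it.

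**Figure D4:**
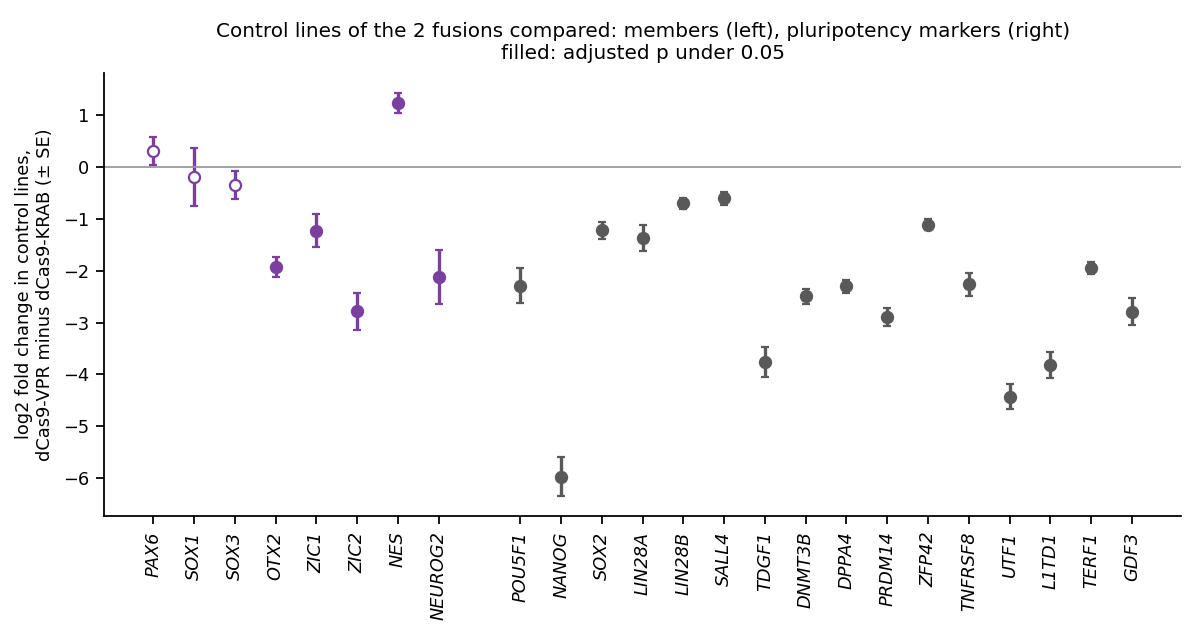
Log2 difference between the control lines of dCas9-VPR and dCas9-KRAB (y axis, bars are ± SE) for the 8 early neural regulators on the left and 16 pluripotency markers on the right. Filled points have an adjusted p under 0.05 in edgeR. NES lies above 0 at 1.25, OTX2, ZIC1, ZIC2 and NEUROG2 lie below, and every pluripotency marker lies below 0. NEUROG2 passed the filter only through the dCas9-KRAB libraries, where it was higher.

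Other genes of neural induction were read from lists beside the members. Of 32 tested neural plate and progenitor factors, 11 rose and 2 fell with CRISPRa (40.6%, median log2 fold change 0.70 beside -0.02 over all genes). PAX7, a paired-box factor of dorsal neural tube and muscle, rose to 142 ± 0.100 CPM (SD, n = 2) beside a control level of 4.44 ± 3.93 CPM (SD, n = 4). POU3F2, a neural POU factor, rose by 4.73 on the log2 scale (SE 0.43), SALL3 by 3.21 (SE 0.36) and IRX3 by 3.07 (SE 0.41). Over all tested genes 28% passed with CRISPRa (15.7% higher, 12.3% lower) and 2.77% with CRISPRi. With CRISPRi 1 of 28 passed in edgeR, 9 had an unadjusted p under 0.05 and DESeq2 called 3. The 1 gene was PROM1, a membrane glycoprotein of progenitors, which fell to 10.8 ± 0.764 CPM (SD, n = 2) beside a control level of 135 ± 25.5 CPM (SD, n = 4). Nothing is called particular to the lists.

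Of 18 tested proneural and neuronal genes, 7 rose and 4 fell with CRISPRa (61.1% beside 28% of all tested genes, median log2 fold change 0.60) and 0 of 16 passed with CRISPRi in edgeR, with 1 at an unadjusted p under 0.05 and 0 called by DESeq2. EBF3, an early B cell factor of differentiating neurons, rose by 1.86 on the log2 scale (SE 0.34), EBF1 rose by 1.96 (SE 0.43) and EOMES, a T-box factor also counted among the mesoderm genes, by 4.29 (SE 0.35). EBF1 (0.155 to 0.446 CPM) and EOMES (0.149 to 0.315 CPM) were low in the 4 controls. Both passed the filter only through the recruitment libraries, where they were higher, and are part of the counts above. Of 16 tested Notch genes, 4 rose and 4 fell with CRISPRa (50% beside 28%, median -0.13). DLL3, a divergent Delta ligand, rose to 786 ± 150 CPM (SD, n = 2) beside a control level of 4.33 ± 2.05 CPM (SD, n = 4) and fell by 1.21 on the log2 scale (SE 0.25) with CRISPRi, where it was the 1 Notch gene of 16 that passed in edgeR. The Notch targets moved apart, as HES1 rose by 1.82 (SE 0.17) while HES4 fell by 3.03 (SE 0.27) and NRARP by 1.89 (SE 0.32) on the log2 scale.

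The signals that precede neural induction were represented by 17 tested genes of BMP and TGF-beta signalling, of which 8 rose and 3 fell with CRISPRa (64.7% beside 28% of all tested genes, median log2 fold change 1.14 beside -0.02). MSX1, a homeobox target of BMP, rose to 295 ± 23.9 CPM (SD, n = 2) beside a control level of 6.99 ± 3.18 CPM (SD, n = 4). MSX2 rose by 2.34 on the log2 scale (SE 0.26), BAMBI by 1.89 (SE 0.12) and the ligand BMP4 by 1.81 (SE 0.14), while LEFTY2, a Nodal antagonist, fell by 2.65 (SE 0.31). With CRISPRi 2 of the 17 passed in edgeR (11.8% beside 2.77% of all tested genes) and DESeq2 called 5. Both that passed in edgeR rose, BMP4 by 1.01 (SE 0.18) and ID4 by 1.01 (SE 0.20). Of 20 tested FGF, WNT and retinoid genes, 3 rose and 4 fell with CRISPRa (35% beside 28%), among them WNT3A, which rose by 2.43 (SE 0.34), and the WNT antagonist SFRP1, which fell by 3.09 (SE 0.38). With CRISPRi 2 of 19 passed (10.5% beside 2.77%), as FGF2 rose by 0.73 (SE 0.16) and SPRY4, a feedback inhibitor of FGF signalling, fell by 0.53 (SE 0.10).

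The pluripotency markers were also read within each fusion. With CRISPRa, 6 of 16 fell and L1TD1 rose (43.8% beside 28% of all tested genes), with a median log2 fold change of -0.34, and their summed level of 1355 to 1411 CPM in the recruitment libraries lay within the control range. With CRISPRi 0 of 16 passed in edgeR, 7 had an unadjusted p under 0.05 and DESeq2 called 1, and the median was -0.18. Whether these changes have a part in the lower OTX2 and ZIC2 of the dCas9-VPR recruitment line was not tested.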

How the data were processed

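The 12 libraries were sequenced as paired-end polyA RNA. According to the submitters' processing notes and the paper's methods, the authors used CASAVA 1.8, trimmed reads with cutadapt 1.8.1, aligned them to hg38 with HISAT2 2.1.0 and assigned them to genes with featureCounts 1.4.6-p2. The annotation and strand setting are not given in the sources used here. The table deposited by the authors holds raw read counts, not normalized. The gene length in bp, also deposited by the authors, served to set levels per kb.

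Genes were filtered with filterByExpr, scaled by TMM and tested with edgeR 4.0.16 in R 4.3.3 (quasi-likelihood F-test, Benjamini-Hochberg adjustment over all tested genes, threshold 0.05), within each fusion for recruitment and over all 12 libraries for the interaction and the control lines. The filter keeps a gene that is high enough in as many libraries as the smaller group holds. A gene low in control can thus enter a test through the recruitment libraries alone. The SE is the absolute log2 fold change over the square root of F. The scripts were tested on simulated data with 200 changed genes. CPM and the floor of 3 counts cover counting error only. The contrast of the control arrays between fusions was added after the data had been seen. DESeq2 1.42.0 was an alternative, and the closing section gives the others.

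Positions came from GENCODE on GRCh38, promoters from RefSeq, and guides from the study's list. The members, lists and tests were chosen with earlier results of these data known. Named genes are all members, their listed paralogs and neighbours, up to 5 genes per list and fusion with the largest change past the threshold, and per member the 2 genes with the most similar profile. Python 3.11.15, pandas 2.3.3, NumPy 2.4.6 and matplotlib 3.10.9 were used for the rest. Repeat transcripts and ChIP-seq were not analysed here.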

Additional observations from a re-analysis of the deposited data

Results flagged for a closer look

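ZIC1 passed as responding differently to recruitment in the 2 fusions, with an interaction of 1.92 on the log2 scale (SE 0.54, adjusted p = 0.0216, edgeR's quasi-likelihood F-test, BH-adjusted), and with dCas9-VPR both recruitment libraries lay above the 4 controls of that fusion. The call was lost without replicate 1 of LTR5HS Sp in either fusion. With dCas9-KRAB the recruitment libraries lay apart, at 0.672 and 1.49 CPM (12 and 22 counts).

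The difference between the control arrays LTR5HS Sa and nontarget Sp was not the same in the 2 fusions for 3 of 8 members, where 2.37% of 16673 tested genes passed (0.648% higher, 1.72% lower). This contrast was added after the control lines had been seen to differ. The difference of differences, dCas9-VPR minus dCas9-KRAB, was 2.20 for ZIC2 (SE 0.31, adjusted p = 0.00414), 1.21 for OTX2 (SE 0.21, adjusted p = 0.0129) and -1.43 for SOX3 (SE 0.31, adjusted p = 0.0361), all on the log2 scale by edgeR's quasi-likelihood test. For ZIC2 and OTX2 both LTR5HS Sa libraries lay above both nontarget Sp libraries with dCas9-VPR and below them with dCas9-KRAB, and SOX3 showed the opposite order.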

How the results depend on the processing

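Of 378 member values under the alternatives, 345 kept their direction and side of the threshold, and none of the 13 that turned sign belonged to a member call. With a single control array the turned values were 0.0466 (OTX2) and 0.23 (ZIC2) for CRISPRi against LTR5HS Sa, 0.43 (SOX1) and -0.0244 (SOX3) for CRISPRa and 0.20 (NES) for CRISPRi against nontarget Sp. Leaving out 1 library at a time turned the interaction of SOX1 (-0.41 to 0.80) and the CRISPRi values of ZIC1 (-1.02 to 0.12), ZIC2 (-0.50 to 0.0411) and NES (-0.25 to 0.0239). It gave 0 to 3 members called with CRISPRa, 0 to 1 with CRISPRi and 0 to 2 for the interaction, and 2299 to 4626, 214 to 441 and 2393 to 3549 genes. The fewest came without a recruitment library, and without the deepest library CRISPRi called 285 genes. Members called were 5 with CRISPRa against either control array alone, 2 with CRISPRi against LTR5HS Sa and 0 with CRISPRi when all 12 libraries shared a fit. With at least 10 counts in every library 5 members were left for the interaction and 0 were called. That filter removed ZIC1, which had 7 counts in dCas9-VPR LTR5HS Sa replicate 2, so its interaction was not tested again there. At a threshold of 0.01 the genes numbered 2517, 236 and 1944, with 0 members for CRISPRa and 0 for the interaction. DESeq2's Wald test called 696 genes with CRISPRi. With control arrays as separate groups NES rose with CRISPRa (0.37, adjusted p = 0.0142 in edgeR).

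Replicate numbers are not stated to mark a shared culture or day, and there are only 2 of them. Same-numbered libraries deviated together (r of 0.182 to 0.268 between arrays with dCas9-VPR, 0.159 to 0.310 with dCas9-KRAB, across genes). The replicate block gave 4961 genes for CRISPRa, 507 for CRISPRi and 4056 for the interaction, with 2, 1 and 1 members, and ended only the CRISPRa call of ZIC2 among the members.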

Other observations

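Outside the neural lists, markers of other lineages also moved. Of 11 tested neural crest genes, 3 rose and 1 fell with CRISPRa (36.4% beside 28% of all tested genes), where SOX9 rose by 1.76 on the log2 scale (SE 0.28), PAX3 by 1.48 (SE 0.36) and SNAI2 by 1.26 (SE 0.32), and NGFR fell by 2.33 (SE 0.46). With CRISPRi 2 of 12 rose and none fell in edgeR (16.7% beside 2.77% of all tested genes). SNAI2, a repressor of epithelial genes, rose by 2.56 (SE 0.39), and TFAP2A, a factor of surface ectoderm and crest, rose to 325 ± 26.4 CPM (SD, n = 2) beside a control level of 155 ± 28.2 CPM (SD, n = 4). SNAI2 was low in these controls, at 0.438 ± 0.208 CPM (SD, n = 4). Of 8 tested trophoblast and surface ectoderm markers, 4 rose and none fell with CRISPRa in edgeR (50% beside 28%, of which 15.7% higher and 12.3% lower), among them CDX2 with a log2 fold change of 3.72 (SE 0.39) and GATA2 with 1.76 (SE 0.15), and 2 of 7 rose with CRISPRi, TFAP2A and GATA3 (28.6% beside 2.77%). Their summed level was 1662 to 2204 CPM in the dCas9-VPR recruitment libraries and 1313 to 1745 CPM in the controls, which overlap. CGA was at 0 in the dCas9-VPR recruitment libraries. Of 9 tested mesoderm and endoderm markers, EOMES and GATA6 rose with CRISPRa (22.2% beside 28%), and 0 of 7 passed with CRISPRi in edgeR, none at an unadjusted p under 0.05 or in DESeq2. EOMES passed the filter only through the recruitment libraries. Of 28 tested paralogs and neighbours of the members, 7 rose and 6 fell with CRISPRa (46.4% beside 28%), and with CRISPRi ALPK1 passed in edgeR as 1 of 26 (3.8% beside 2.77%). Among them GFAP, the filament protein of astrocytes, rose by 1.95 (SE 0.18) and DES, that of muscle, fell by 0.92 (SE 0.20) with CRISPRa.

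As a description of likeness, profiles of log2 CPM over the 12 libraries were centred and compared by their mean absolute difference. The gene most like OTX2 was SLC4A11 (0.204), that most like ZIC2 was TCEAL2 (0.282), that most like ZIC1 was IL15RA (0.183), and that most like NES was GPM6A (0.148). LYN was nearest to PAX6 (0.148), LYSMD2 to SOX3 (0.270), ANPEP to SOX1 (0.390) and EDIL3 to NEUROG2 (0.383). Among the members, OTX2 and ZIC2 were the closest pair (0.536). All of these profiles share the same libraries and the difference between the fusions.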
